A study of Mus musculus with 12 samples.

Results

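Flow sorting of passage-one stromal cultures from mouse marrow was described across all expressed genes, by setting 3 sorted libraries beside 3 nonsorted libraries of bulk RNA sequencing. The series holds 12 libraries, and these 6 were chosen by their labels alone. Marrow cells of wild-type mice, flushed from both hind limbs and the pelvis, were grown on plastic coated with collagen I in a medium without ascorbic acid and under hypoxia. After the first passage one group was lysed as it was (BM nonsorted), and the other was first sorted by flow cytometry (BM sorted). The sort kept cells that stained for CD51 and Sca-1 and discarded cells that stained for CD31, CD45, Ly6C or F4/80. CD31 is in the series design and not in the label of the samples. All 6 libraries share the wild-type genotype, the culture conditions and the passage, and the labels give no age of the mice. The labels do not say whether libraries of a group came from separate mice or separate cultures. The p-values therefore set each group difference against the spread between these libraries, which may be technical in part. The labels describe all 6 libraries as marrow stromal cells, and genes that define fibroblastic stroma, such as Col1a1 and Prrx1, were high in each of them.

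Adherent marrow cultures hold mesenchymal stromal cells, the precursors of bone, fat and the supporting tissue of blood formation, together with macrophages that attach to the same plastic. Macrophages depend on the growth factor receptor encoded by Csf1r, and stromal cells secrete its ligand CSF1. CD45, encoded by Ptprc, is a phosphatase on all nucleated blood cells, and F4/80, encoded by Adgre1, is an adhesion receptor of mouse macrophages. CD51 is the integrin chain αV, encoded by Itgav, Sca-1 is a membrane-anchored protein encoded by Ly6a, and CD31, encoded by Pecam1, marks endothelium. In bulk RNA fewer cells of a type and less RNA per cell cannot be told apart, and every level given here carries that limit.

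Depth was even, with 27937709 to 32164725 counts per library. Libraries of 1 group correlated at 0.975 to 0.992 (Pearson's r of log2 CPM across genes, where CPM is the count scaled to a common library total), and the first principal component, with 94.3% of the variance, separated sorted from nonsorted libraries. Mitochondrial transcripts took 1.12% to 1.36% of the counts before and 1.09% to 1.21% after sorting. Among genes of at least 20 CPM in both groups, the median coefficient of variation over the 3 libraries was 8.14% before and 8.17% after.

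After the sort some genes were almost absent, leukocyte genes among them, and most genes tested were not called. Of 14753 genes tested, 1232 (8.35%) were called by edgeR's quasi-likelihood test at a Benjamini-Hochberg adjusted p under 0.05. After sorting 1114 (7.55%) were lower and 118 (0.800%) were higher. Genes called lower were graded by the level left, which is the mean CPM after sorting as a percent of that before: 254 genes had under 1% left, 195 had 1% to 10%, 302 had 10% to 50%, and 363 had over 50%. In 76 genes called lower all 3 sorted libraries had 0 counts. The genes with under 10% left took 1.97%, 1.75% and 1.79% of all counts in the 3 nonsorted libraries and 0.0196%, 0.0156% and 0.0156% in the 3 sorted libraries. The median gene tested kept 99.8% of its level. The scaling between libraries places the middle of all genes near no change, so this median is a yardstick and not a result. Nonsorted and sorted libraries held separate ranges in 29.3% of genes, of which 2552 were lower and 1766 higher after sorting.

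**Figure D1:**
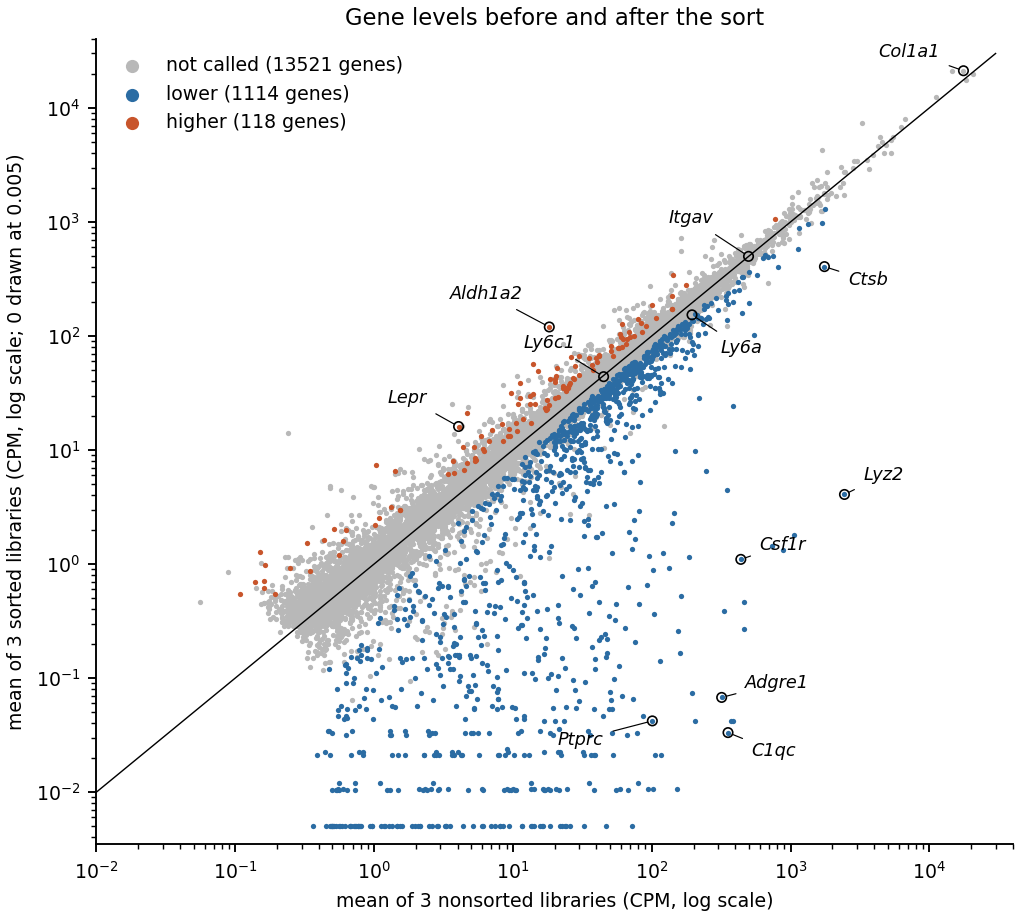
Mean CPM of each tested gene over the 3 nonsorted libraries (x axis) and over the 3 sorted libraries (y axis), both on log scales, with genes called lower in blue, called higher in orange and not called in grey, and the line of equal levels in black. Circled genes are named in the text. The 254 genes with under 1% left lie far below the line, the 363 with over 50% left lie close to it, and 45 of the 118 orange genes lie at least 1 log2 unit above it.

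Of the antigens that defined the gate, the transcripts of CD45 and F4/80 were all but gone. Ptprc stood at 113, 91.9 and 98.4 CPM in the 3 nonsorted libraries and at 0, 0.0943 and 0.0319 CPM in the 3 sorted libraries. Its log2 fold change, here and below as sorted minus nonsorted with an approximate standard error, was -11.04 ± 0.32 (edgeR adjusted p = 2.98e-06). Adgre1 stood at 317, 296 and 344 CPM before and at 0.107, 0.0314 and 0.0639 CPM after sorting (-12.15 ± 0.21, edgeR adjusted p = 1.32e-06). Both falls were set by the gate itself and only check the labels.

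The other antigens of the gate were flat or too rare to test. Itgav stood at 613, 465 and 416 CPM before and 477, 501 and 518 CPM after sorting, with the sorted libraries inside the range of the nonsorted ones (0.00 ± 0.15, edgeR adjusted p = 0.995). Ly6a stood at 268, 188 and 129 CPM before and 154, 159 and 146 CPM after (-0.35 ± 0.24, edgeR adjusted p = 0.474), so the sorted libraries were more even but no higher. Ly6c1 is one of the genes behind the Ly6C antigen, and a cell carrying that antigen was discarded. It stood at 49.9, 44.6 and 40.6 CPM before and 45.5, 42.5 and 43.8 CPM after sorting (-0.03 ± 0.10, edgeR adjusted p = 0.877). Its near-identical neighbour Ly6c2 had 2 counts in all in each group, and the handling of reads that fit both genes is not given here. Pecam1 had 18 counts in all before and 6 after sorting and was not tested. Surface protein was not measured in these files.

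**Figure D2:**
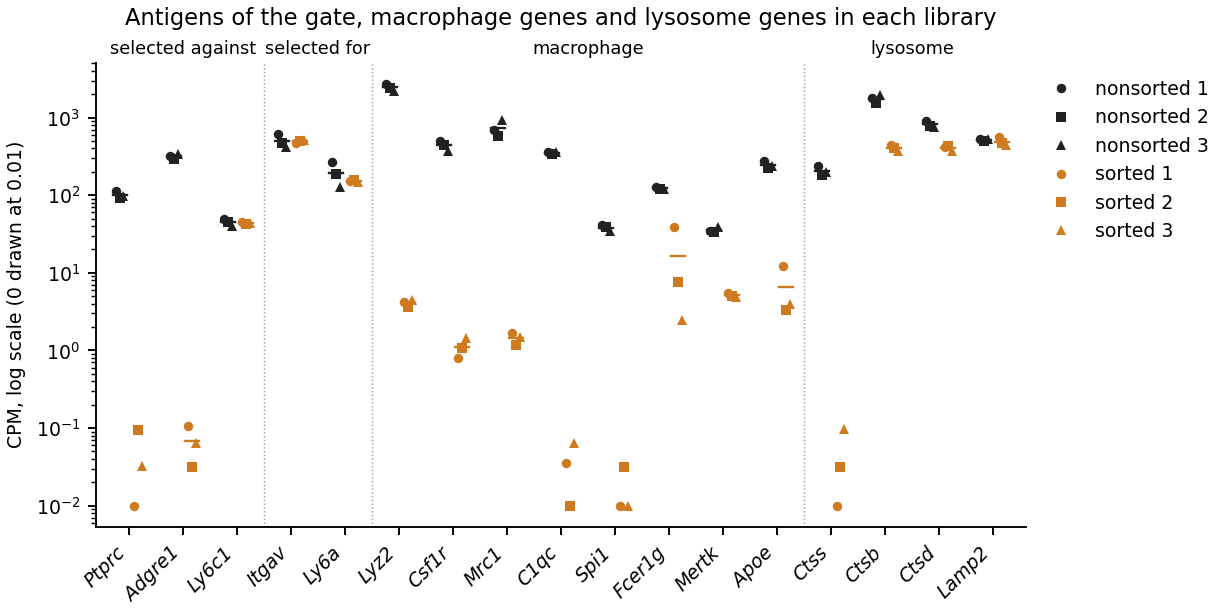
CPM in each of the 6 libraries on a log scale for 5 antigens of the gate, 8 macrophage genes and 4 lysosome genes; black symbols are nonsorted and orange symbols sorted libraries, the shape gives the library number, and short lines are group means (not drawn where a library has 0 counts). Ptprc and Adgre1 drop by 3 orders or more, Ly6c1, Itgav, Ly6a and Lamp2 stay level, and Fcer1g spreads over the sorted libraries from 38.9 down to 2.49 CPM.

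Genes shared by all leukocytes fell together. All 20 members of a pan-leukocyte list were called lower, against 7.55% of all genes tested, and 17 of the 20 had under 1% of their level left. The list includes Ptprc, which the gate itself selected against. The median member kept 0.110%, where the median gene tested kept 99.8%. Lcp1, an actin-bundling protein of blood cells, stood at 546, 441 and 400 CPM before and 0.502, 0.534 and 0.351 CPM after sorting (-9.96 ± 0.23, edgeR adjusted p = 1.61e-06). Dock2, an activator of Rac in leukocyte migration, had 6278 counts in all before sorting and 1 after, a ratio of 6151 with a 95% counting interval of 1104 to 243000. Cd48, a ligand of the signalling lymphocyte receptor family, was at 0 counts in all sorted libraries and so at least 558-fold lower, taking 3 counts over the 3 libraries as the floor. The highest remainder was that of Arhgdib, an inhibitor of small GTPases, with 81.5, 60.3 and 51.6 CPM before and 16.3, 13.7 and 9.29 CPM after, or 20.3% left (-2.30 ± 0.25, edgeR adjusted p = 0.00171). In the fit of all 12 libraries of the series Arhgdib was not called (edgeR adjusted p = 0.0708).

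Macrophage identity genes were called lower in each of 18 tested cases of 20 listed, against 7.55% of all genes tested. Of the 18, 13 had under 1% left, and Adgre1, a target of the gate, is among the 18. Together the list took 0.544%, 0.489% and 0.498% of the counts before sorting and 0.00227%, 0.00165% and 0.00198% after. Lyz2, the lysozyme of myeloid cells, showed the largest fall in CPM of all genes, a measure that also depends on transcript length. It stood at 2712, 2428 and 2198 CPM before and 4.23, 3.58 and 4.41 CPM after sorting (-9.23 ± 0.18, edgeR adjusted p = 1.37e-06). Csf1r stood at 499, 441 and 375 CPM and at 0.788, 1.07 and 1.44 CPM (-8.63 ± 0.25, edgeR adjusted p = 2.74e-06). The mannose receptor Mrc1 fell by 8.98 ± 0.28 on the log2 scale (edgeR adjusted p = 3.66e-06) and the pore-forming gene Mpeg1 by 10.75 ± 0.39 (edgeR adjusted p = 7.06e-06). Lyz2, Csf1r and Mrc1 kept 0.167%, 0.250% and 0.199% of their level, each with at least 0.788 CPM in a sorted library, while Itgam, the complement receptor chain CD11b, had 1 count in all.

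Receptors for immune complexes and debris went the same way, with 19 of 20 called lower (against 7.55% of all genes tested) and 17 under 1%. The 3 chains of complement C1q, which tags dying cells and which macrophages secrete, held 355 to 411 CPM of C1qa and C1qb and 343 to 363 CPM of C1qc in the nonsorted libraries. None of the 3 genes passed 0.0958 CPM in a sorted library, and for C1qc the ratio of before to after was 10760 (95% counting interval 3681 to 52170). Stab1, a scavenger receptor of tissue macrophages, stood at 1170, 971 and 1022 CPM before and 1.29, 2.20 and 1.85 CPM after (-9.20 ± 0.24, edgeR adjusted p = 1.98e-06). F13a1, the transglutaminase chain of clotting factor XIII, stood at 842, 777 and 1016 CPM before and 1.65, 1.35 and 0.958 CPM after (-9.38 ± 0.25, edgeR adjusted p = 2.03e-06). The inhibitory Fc receptor Fcgr2b was at least 2209-fold lower, the lectin Clec4d at least 1409-fold and the paired receptor Cd300lb at least 787-fold. Counting intervals and floors cover counting error only, because reads of amplified libraries are not independent molecules.

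The 1 member of that list that missed the threshold was uneven among the sorted libraries. Fcer1g, the signalling chain shared by Fc receptors, stood at 129, 120 and 121 CPM before sorting and at 38.9, 7.67 and 2.49 CPM in BM sorted 1, 2 and 3 (-2.92 ± 0.88, edgeR adjusted p = 0.112). Without BM sorted 1 it was called (-4.60, edgeR adjusted p = 0.00431). Its partner chain Tyrobp had 1 count in all sorted libraries, against 9464 before. Apoe, a lipid carrier, was called lower (-5.26 ± 0.53, edgeR adjusted p = 0.00113), with a remainder of 12.2 CPM in BM sorted 1 and of 3.27 and 3.99 CPM in the other two. Over the whole macrophage identity list BM sorted 1 held 0.00227% of its counts, against 0.00165% and 0.00198% in BM sorted 2 and 3. In BM sorted 1 Ptprc and Itgam were at 0 counts, while Adgre1 had 3 and Lyz2 118.

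Transcription factors of the myeloid lineage were lower in part. Of 16 tested, 7 were called lower (against 7.55% of all genes tested) and 9 were not. Spi1, which encodes PU.1, the regulator that myeloid cells require, stood at 40.7, 39.1 and 34.9 CPM before and at 0, 0.0314 and 0 CPM after sorting, a ratio of 3477 (95% counting interval 624 to 137400). Irf8, a regulator of monocyte fate, fell by 7.45 ± 0.24 (edgeR adjusted p = 4.43e-06), and Ikzf1, which encodes Ikaros, was at least 656-fold lower. Zeb2 stood at 268, 290 and 264 CPM before and 276, 200 and 192 CPM after (-0.30 ± 0.15, edgeR adjusted p = 0.313).

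The promoters of the genes removed were read for 6 motifs, among them the core of the PU.1 site. Spi1 itself was among the genes removed. Promoters here are 250 bases before and 50 bases after the start of each gene, from RefSeq on build GRCm38.p6, whereas the counts rest on GRCm39, and 10947 of the 14753 tested genes had one. The 8 letters GAGGAAGT, searched on both strands, occurred in 3.69% of all 27025 promoters and in 3.68% of those of tested genes. They occurred in 40 of 188 genes with under 1% left (21.3%), in 15 of 150 with 1% to 10% left (10.0%), in 15 of 219 with 10% to 50% left (6.85%), in 15 of 295 with over 50% left (5.08%) and in 1 of 89 called higher (1.12%). The AP-1 site occurred in 9.57% of promoters of genes with under 1% left and in 4.63% of those of tested genes. For the cAMP response element the shares were 0% and 3.42%, and for the serum response element 0% and 0.0365%. These shares are descriptions with no test, and a match is not evidence of binding. The 3 examples follow as windows of 120 bases upstream of the start (ending 131 bases before it in C1qc and next to it in the other two), 5′ to 3′ along the gene, with the match in capitals in whichever strand it was found. They were chosen after their values were seen, as C1qc is described above, Vav1 activates Rac in blood cells (39.0, 34.2 and 34.4 CPM before and 0, 0 and 0.0958 CPM after), and Pf4 is a platelet chemokine that macrophages can also make (54.5, 48.0 and 51.7 CPM before and 0, 0.0314 and 0.128 CPM after).
C1qc, chr4:136893045-136893164, minus strand: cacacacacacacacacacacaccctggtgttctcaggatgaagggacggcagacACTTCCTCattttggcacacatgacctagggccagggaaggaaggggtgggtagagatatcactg
Vav1, chr17:57278980-57279099, plus strand: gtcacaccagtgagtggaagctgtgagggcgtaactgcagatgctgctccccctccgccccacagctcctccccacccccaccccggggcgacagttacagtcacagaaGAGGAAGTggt
Pf4, chr5:90772315-90772434, plus strand: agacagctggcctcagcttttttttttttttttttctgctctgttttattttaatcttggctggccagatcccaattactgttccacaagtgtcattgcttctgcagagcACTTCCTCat

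Lysosome genes fell in part, and the size of the fall differed widely between members. Lysosomes are the acid compartments in which cells break down material, present in all cells and abundant in phagocytes. Of 30 lysosome genes 17 were called lower (against 7.55% of all genes tested), 0 higher and 13 not at all. The median member kept 69.5% of its level. Without 1 library 14 to 17 were called, in the fit of 12 libraries 14. The list took 1.05%, 0.978% and 1.03% of the counts before sorting and 0.639%, 0.609% and 0.590% after. Ctss, a cathepsin of antigen-presenting cells, stood at 238, 183 and 199 CPM before and 0, 0.0314 and 0.0958 CPM after (-12.07 ± 0.33, edgeR adjusted p = 2.45e-06). Ctsc, the cathepsin that activates granule proteases, kept 4.82% (-4.37 ± 0.34, edgeR adjusted p = 0.000298).

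Cathepsins of broad use kept far more. Ctsb stood at 1767, 1560.4 and 1937 CPM before and 437, 405 and 375 CPM after, or 23.1% left (-2.11 ± 0.12, edgeR adjusted p = 6.15e-05). Ctsd stood at 909, 785 and 758 CPM before and 420.3, 426 and 369.8 CPM after, or 49.6% left (-1.01 ± 0.11, edgeR adjusted p = 0.00159). Ctsl stood at 668, 552 and 501 CPM before and 436, 609 and 524 CPM after (-0.13 ± 0.16, edgeR adjusted p = 0.695), and the membrane protein Lamp2 kept 94.0% (-0.09 ± 0.11, edgeR adjusted p = 0.715). The mannosidase Man2b1 (37.9% left), the growth factor precursor Grn (38.7%) and the protease Lgmn (39.99%) lay between, each called lower. The falls of Lamp1 and of the saposin precursor Psap were small, to 71.0% and 71.2%, and both calls ended in most settings tried, among them the fits without BM nonsorted 1 (edgeR adjusted p = 0.0935 and 0.127) and without BM sorted 3 (0.129 and 0.156).

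The proton pump that acidifies lysosomes showed the same shallow pattern, with a median remainder of 79.1%. Of 17 subunits 8 were called lower, against 7.55% of all genes tested. The number called was 5 to 7 without 1 library and 4 in the fit of 12 libraries. Atp6v0d2, the subunit form used by osteoclasts and macrophages, stood apart with 338 counts in all before and 2 after, a ratio of 166 (95% counting interval 45.5 to 1373). Atp6v0b (60.03% left) and the accessory subunit Atp6ap2 (64.2%) were called lower, and Atp6ap2 was lost without BM sorted 3 (edgeR adjusted p = 0.0545). In the accessory subunit Atp6ap1 the difference was not called (-0.33 ± 0.11, edgeR adjusted p = 0.135).

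The palindrome TCACGTGA, the core of the CLEAR element of lysosomal genes, was searched in the same promoters. It occurred in 2.13% of the promoters of tested genes and in 1.12% of all promoters. Among genes called lower it was found in 22 of 295 with over 50% left (7.46%) and in 0 of 188 with under 1% left, which is the reverse of the order seen for the PU.1 core. Among the called lysosome genes with a promoter 3 of 14 held it, and 4 of 14 held the PU.1 core. Of the 3, 2 are shown with the match in capitals because their levels fell in part. The window of Ctsd ends 36 bases before the start. Ctsa is a protective carboxypeptidase of the lysosome that kept 59.6% (-0.75 ± 0.14, edgeR adjusted p = 0.0194). Its call was lost without BM sorted 2 (0.0872), without BM sorted 3 (0.0922) and in the fit of 12 libraries (0.0831).
Ctsd, chr7:142387863-142387982, minus strand: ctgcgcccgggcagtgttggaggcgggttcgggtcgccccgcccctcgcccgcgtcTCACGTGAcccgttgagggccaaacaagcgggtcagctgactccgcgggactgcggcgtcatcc
Ctsa, chr2:164833653-164833772, plus strand: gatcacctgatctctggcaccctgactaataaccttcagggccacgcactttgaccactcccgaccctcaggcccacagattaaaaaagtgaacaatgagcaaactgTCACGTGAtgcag

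Genes of defence, inflammation and iron handling followed the macrophage genes to different depths. Of 14 genes of the phagocyte oxidase and the inflammasome 10 were called lower (against 7.55% of all genes tested), with a median of 4.82% left. Cybb, the catalytic chain of the oxidase, stood at 116, 98.1 and 95.7 CPM before and 0.215, 0.346 and 0.543 CPM after (-8.10 ± 0.25, edgeR adjusted p = 3.27e-06), while Cyba, its partner, which other cells also use, kept 31.8% (-1.65 ± 0.10, edgeR adjusted p = 6.69e-05). The protease Casp1 was not called (26.4, 34.0 and 34.6 CPM before, 36.5, 21.7 and 12.2 CPM after).

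Of 15 cytokine and chemokine genes tested 9 were called lower (against 7.55% of all genes) and 0 higher, with a median of 23.2% left. Tnf had 1112 counts in all before and 2 after sorting, a ratio of 545 (95% counting interval 150 to 4504). For the chemokine Ccl4 the fall was at least 243-fold and for the cytokine Osm at least 86.9-fold. Ccl2, which recruits monocytes and is made by stroma as well, kept 13.04% (-2.94 ± 0.33, edgeR adjusted p = 0.00185), and the growth factor Tgfb1 kept 40.3% (-1.31 ± 0.09, edgeR adjusted p = 0.000171). Ccl9 missed the threshold at 57.8% left (-0.79 ± 0.19, edgeR adjusted p = 0.0521). Il1b, with 22 counts before and 0 after, was too rare to test.

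Among 16 genes of lipid and iron handling 8 were called lower (against 7.55% of all genes tested), with a median of 61.7% left. The iron exporter Slc40a1 stood at 32.05, 33.4 and 38.7 CPM before and 1.61, 0.849 and 0.287 CPM after (-5.26 ± 0.47, edgeR adjusted p = 0.000585). Slc11a1, a metal transporter of the phagosome, fell by 6.56 ± 0.32 (edgeR adjusted p = 3.01e-05) and the glycoprotein Gpnmb by 6.30 ± 0.33 (edgeR adjusted p = 4.03e-05). The ferritin heavy chain Fth1 kept 51.0%, with 1261, 1121 and 1014 CPM before and 642, 593 and 498 CPM after (-0.97 ± 0.14, edgeR adjusted p = 0.00496). Of 10 osteoclast genes 5 were called lower (against 7.55% of all genes tested) and 4 to 5 without 1 library. The RANKL receptor Tnfrsf11a stood at 31.5, 27.7 and 26.5 CPM before and 0.107, 0.346 and 0.224 CPM after (-6.93 ± 0.28, edgeR adjusted p = 1.19e-05). Mmp9 kept 1.04% (-6.48 ± 0.47, edgeR adjusted p = 0.000188), whereas the integrin chain Itgb3 was not called (0.46 ± 0.16, edgeR adjusted p = 0.158). Calcr, Oscar, Dcstamp and Ocstamp, which mark mature osteoclasts, were too rare to test in either group.

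Among the 302 genes called lower that kept 10% to 50% were several that macrophages are known to use. Mertk was the macrophage identity gene with the highest remainder. The efferocytosis receptor Mertk stood at 34.9, 33.1 and 39.1 CPM before and at 5.55, 5.03 and 4.82 CPM after, or 14.4% left (-2.80 ± 0.11, edgeR adjusted p = 1.14e-05). The endocytic adaptor Dab2 kept 18.4%, at 549, 496 and 599 CPM before and 126, 86.0 and 90.4 CPM after (-2.44 ± 0.17, edgeR adjusted p = 0.000167). The pattern receptor Tlr2 kept 18.7% (-2.42 ± 0.16, edgeR adjusted p = 0.000101) and the chemokine Cxcl16 kept 23.2% (-2.11 ± 0.16, edgeR adjusted p = 0.000264). The mean levels left of these genes were 14.4% to 23.2%, where Lyz2 and Csf1r kept 0.167% and 0.250%. That range is of the genes named here and not of all 302.

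**Figure D3:**
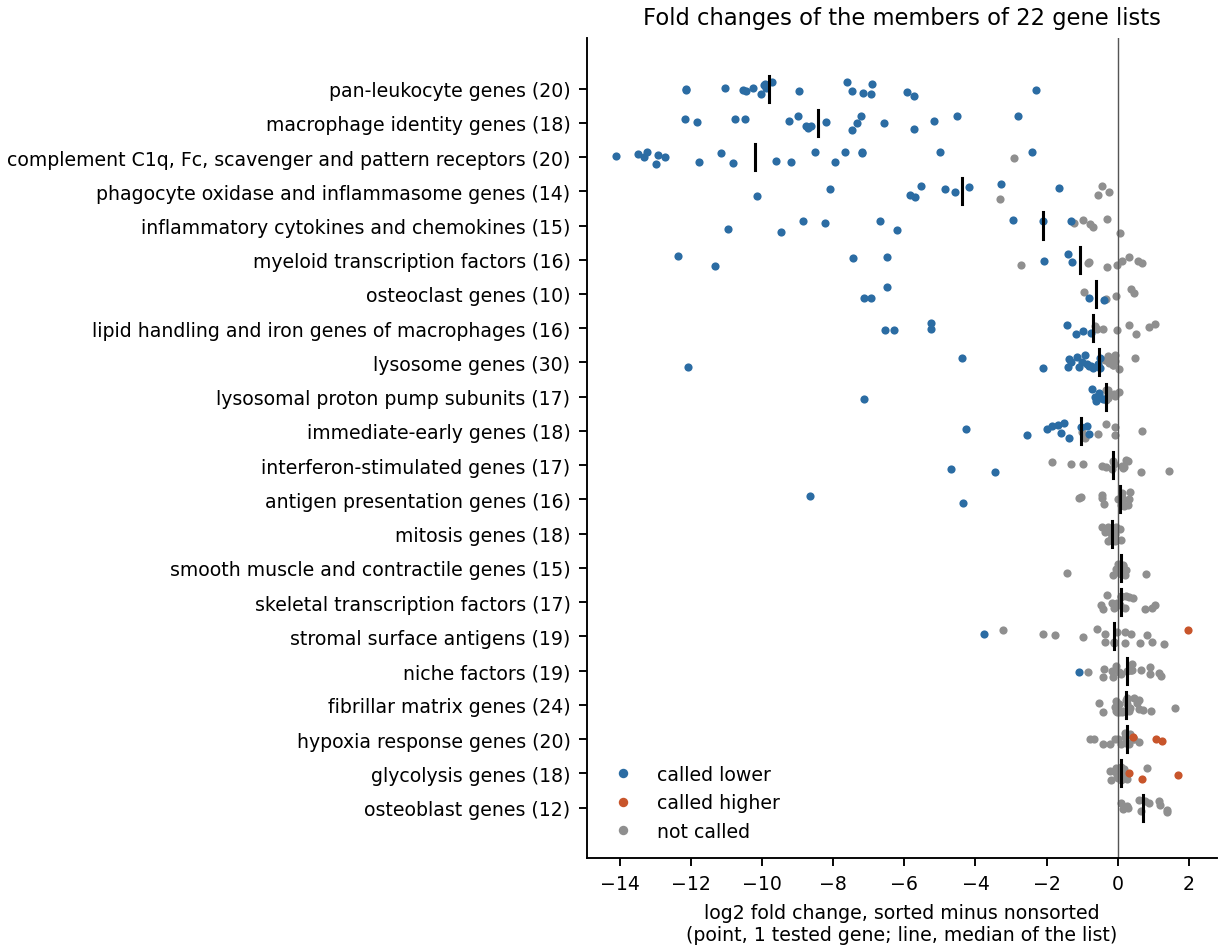
Log2 fold change (sorted minus nonsorted) of each tested member of 22 gene lists, with the number tested in brackets, members called lower in blue, called higher in orange and not called in grey, and the median of each list as a black line. Values of genes with 0 counts after sorting depend on the prior count of the fit. The top 3 lists lie almost wholly below -4, lysosome and immediate-early genes shift by less, and matrix and skeletal lists straddle 0.

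Lineages other than macrophages left few traces in the nonsorted cultures. Of 15 neutrophil genes 3 were frequent enough to test, and 1 was called lower (against 7.55% of all genes tested). It was Csf3r, the receptor of the granulocyte growth factor. Csf3r fell from 212 counts in all to 2, a ratio of 104 (95% counting interval 28.4 to 863). The 2 others were not called and had positive log2 fold changes, and the median level left of the 3 was 128%. S100a9 had no counts in either group. Of 14 T and NK cell genes 2 were tested and neither was called, and Cd3e, Cd3d and Cd3g had no counts. In the B cell list 3 genes were tested and 2 were called lower (against 7.55% of all genes tested). They were the adaptor Blnk (at least 499-fold lower) and the heavy chain gene Ighm (at least 101-fold lower). The other gene tested, Ebf1, lay higher in each sorted library and was not called (0.58 ± 0.24, edgeR adjusted p = 0.237). Cd79a and Cd79b had 8 and 4 counts before sorting. In the erythroid and megakaryocyte list Pf4 was the 1 gene called lower of 3 tested (-9.77 ± 0.36, edgeR adjusted p = 8.57e-06, against 7.55% of all genes). The 2 others, among them Itga2b (0.45 ± 0.25, edgeR adjusted p = 0.371), had positive log2 fold changes and were not called. The haemoglobin genes had no counts.

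Endothelial, mast cell and dendritic cell markers were also scarce. Of 15 endothelial genes 7 were tested, 2 were called lower (against 7.55% of all genes), and 4 had positive log2 fold changes. Kdr, the receptor for VEGF, stood at 3.23, 2.45 and 2.27 CPM before and 0.0358, 0.126 and 0.0319 CPM after (-5.25 ± 0.47, edgeR adjusted p = 0.000552), and Cdh5 had 51 counts before and 1 after, a ratio of 50.0 (95% counting interval 8.57 to 2012). No gene of the mast cell and basophil list was called, and the basophil protease Mcpt8 stood at 8.30, 18.6 and 4.51 CPM before and 10.2, 20.4 and 24.2 CPM after (0.81 ± 0.54, edgeR adjusted p = 0.454). Of 5 dendritic cell genes tested, Itgax alone was called lower (against 7.55% of all genes), with 121 counts before and 3 after. Positive log2 fold changes were found in 2 of the 5. Of 16 antigen presentation genes 2 were called lower (2 to 4 without 1 library, against 7.55% of all genes), the costimulatory receptors Cd40 (4.73% left) and Cd86 (560 counts before and 1 after), while B2m was not called (-0.46 ± 0.16, edgeR adjusted p = 0.155). Of 17 interferon-stimulated genes Oas1a (3.88% left) and Rsad2 (8.70%) were called lower (against 7.55% of all genes), a count of 2 that became 2 to 6 without 1 library and 3 in the fit of 12 libraries.

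Skeletal muscle genes were carried by 1 nonsorted library. Myh3, the embryonic myosin, stood at 1.81, 98.5 and 5.26 CPM in BM nonsorted 1, 2 and 3 and at 0.0358, 8.08 and 0 CPM after sorting (-3.68 ± 1.95, edgeR adjusted p = 0.339). The 12 genes of the muscle list summed to 359.9 CPM in BM nonsorted 2, against 91.3 and 39.2 CPM in the other two and 31.4 to 87.3 CPM in the sorted libraries. BM nonsorted 2 and BM sorted 2 were the highest of their groups, and none of the 8 tested members was called by edgeR or by the DESeq2 Wald test.

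Immediate-early genes, the transcription factors and regulators that cells switch on within minutes of a stimulus, were lower after the sort. Of 18 members 11 were called lower (against 7.55% of all genes tested), 0 were higher and 7 did not pass. Together they took 0.177%, 0.199% and 0.222% of the counts before sorting and 0.106%, 0.0948% and 0.105% after. Fos, a subunit of AP-1, stood at 81.1, 119 and 139 CPM before and 51.5, 25.0 and 29.4 CPM after (-1.68 ± 0.32, edgeR adjusted p = 0.0215). Its partner Jun stood at 114, 112 and 115 CPM before and 30.2, 48.6 and 53.4 CPM after (-1.37 ± 0.20, edgeR adjusted p = 0.00669). Egr1, a zinc finger factor, stood at 403, 426 and 517 CPM before and 201, 118 and 154 CPM after (-1.51 ± 0.21, edgeR adjusted p = 0.00471). In none of these 3 genes did the groups overlap.

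The depth of the fall varied within the family. The stress factor Atf3 had the lowest remainder, at 10.4, 8.38 and 10.3 CPM before and 0.358, 0.472 and 0.670 CPM after, or 5.16% left (-4.26 ± 0.26, edgeR adjusted p = 7.66e-05). Egr2 kept 17.2% (-2.54 ± 0.30, edgeR adjusted p = 0.00231), the orphan receptor Nr4a1 25.2% (-1.99 ± 0.21, edgeR adjusted p = 0.0014) and the phosphatase Dusp1 32.9% (-1.60 ± 0.24, edgeR adjusted p = 0.00748). Junb, Btg2 and Ier2 kept 57.4%, 48.4% and 54.6%. Among the members not called, Myc stood at 74.8, 83.5 and 71.2 CPM before and 65.4, 72.4 and 79.3 CPM after. Fosl1 lay higher in each sorted library (4.91, 7.64 and 5.45 CPM before, 11.1, 8.77 and 9.20 CPM after) without passing the test (0.69 ± 0.20, edgeR adjusted p = 0.0989).

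These calls rested on the spread within the marrow groups. Without 1 library 8 to 13 members were called lower, and with the fit of all 12 libraries of the series 0 were, with edgeR adjusted p between 0.0608 for Atf3 and 0.586 for Junb. Fos was lost when any 1 of BM nonsorted 2 (0.0604), BM nonsorted 3 (0.0552), BM sorted 2 (0.0704) and BM sorted 3 (0.0994) was left out, and Ier2 and Egr3 were lost without BM sorted 3 as well (0.122 and 0.0803). Sorted cells went through staining and flow cytometry and nonsorted cells did not, so removal of cells and handling of cells cannot be told apart. The macrophage list fell in the same libraries, from 0.489% to 0.544% of the counts to at most 0.00227%, and its part in the fall of the immediate-early genes was not tested.

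**Figure D4:**
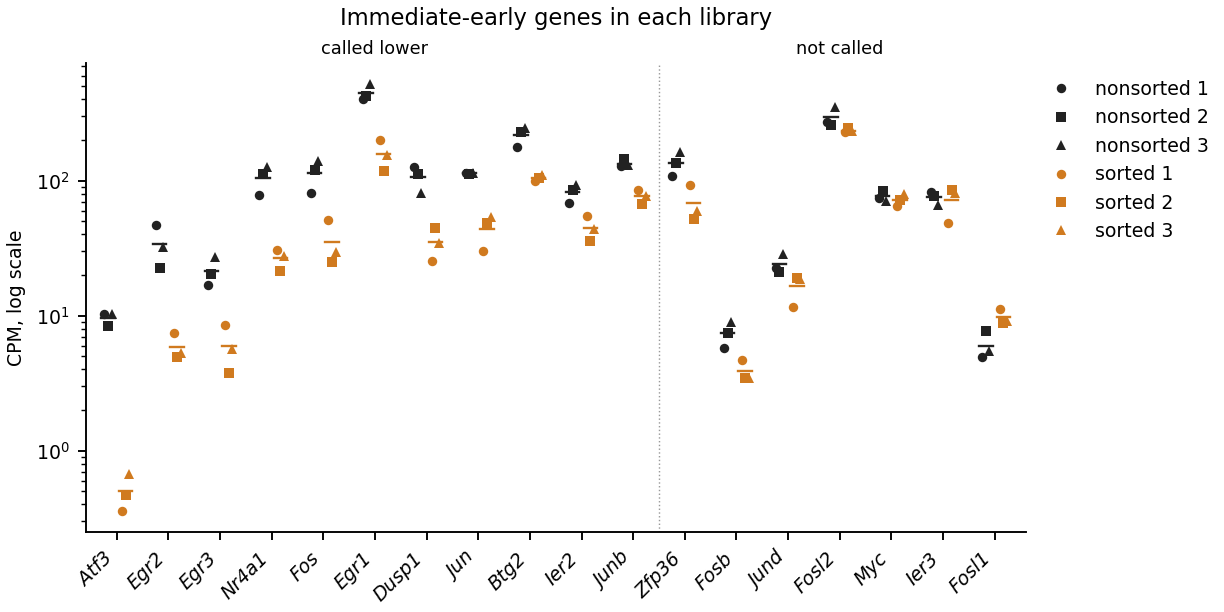
CPM on a log scale of the 18 immediate-early genes in each library, with nonsorted libraries in black, sorted libraries in orange, the shape giving the library number and short lines the group means. In the 11 genes on the left, called lower, each orange symbol lies below each black one, from Atf3 with 5.16% left to Junb with 57.4% left; Myc and Ier3 on the right overlap.

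Few genes of the stromal programme were called. Of 24 fibrillar matrix genes 0 were called in either direction, with 2 higher by the DESeq2 Wald test, and the median member kept 118%. The list took 13.01%, 12.5% and 12.7% of all counts before sorting and 14.3%, 15.1% and 13.8% after. Col1a1, a chain of type I collagen, stood at 19048, 18150 and 15639 CPM before and 20363, 22354 and 20806 CPM after (0.27 ± 0.13, edgeR adjusted p = 0.299). Its partner Col1a2 stood at 14549, 15770 and 13101 CPM before and 22611, 20745 and 19857 CPM after (0.54 ± 0.13, edgeR adjusted p = 0.0515). It passed the threshold with upper quartile scaling (0.0327), without a low-count filter (0.0386), with a stricter filter (0.0483) and by the DESeq2 Wald test (2.35e-05). Fibronectin (Fn1), thrombospondin 1 (Thbs1) and the crosslinking enzyme Lox kept 94.9%, 96.4% and 111%, and none was called.

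Lineage regulators, contractile genes and cell cycle genes showed 0 calls in the edgeR fit. This held for 17 skeletal transcription factors (2 higher by the DESeq2 Wald test), 12 osteoblast genes (1 higher), 11 cartilage genes (1 higher and 1 lower), 15 smooth muscle genes (1 higher), 18 mitosis genes (1 lower) and 18 DNA replication genes (0). All 12 osteoblast genes nonetheless had a positive log2 fold change, with a median of 0.71 (-0.0023 over all genes tested). Their median level left was 163%. In 3 of the 12 the groups did not overlap, against 29.3% of all genes tested in either direction. All 9 adipocyte genes tested were positive as well, with a median level left of 177%. Lepr was the 1 called higher (against 0.800% of all genes tested), and the DESeq2 Wald test called 4 higher. In 5 of the 9 the groups did not overlap. A call that was not made does not show that levels were equal, and the intervals of single genes were often wide. The limb mesenchyme factor Prrx1 stood at 466, 409.6 and 433 CPM before and 368, 471 and 443 CPM after (-0.03 ± 0.12, edgeR adjusted p = 0.916). The smooth muscle actin Acta2 stood at 5289, 4587 and 3879 CPM before and 4480.3, 5626 and 4869 CPM after (0.12 ± 0.16, edgeR adjusted p = 0.711). The mitotic topoisomerase Top2a stood at 238, 241 and 208 CPM before and 218, 217 and 280.3 CPM after (0.06 ± 0.13, edgeR adjusted p = 0.843).

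Several stromal genes differed widely between libraries of 1 group. Cxcl12, the chemokine that retains blood stem cells, stood at 1619, 3687 and 4444 CPM before and at 13532, 4353 and 4053 CPM after sorting (1.17 ± 0.58, edgeR adjusted p = 0.306). Kitl, the stem cell factor, stood at 37.6, 85.4 and 170 CPM and at 408, 76.0 and 67.2 CPM (0.91 ± 0.83, edgeR adjusted p = 0.595). The adipocyte hormone gene Adipoq stood at 0.0646, 0.369 and 0.280 CPM and at 39.8, 1.26 and 0.990 CPM (5.86 ± 1.78, edgeR adjusted p = 0.115). In all 3 genes BM sorted 1 was the highest library and BM nonsorted 1 the lowest. The groups overlapped in Cxcl12 and Kitl but not in Adipoq.

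Bone and surface genes were uneven too. Alkaline phosphatase (Alpl), an early osteoblast enzyme, stood at 124, 377 and 309.7 CPM before and 705, 502 and 588 CPM after (1.15 ± 0.39, edgeR adjusted p = 0.149). The cadherin Cdh11 stood at 295, 402 and 144 CPM before and 1009, 567 and 505 CPM after (1.31 ± 0.42, edgeR adjusted p = 0.134). In neither Alpl nor Cdh11 did the groups overlap, and the DESeq2 Wald test called both higher (adjusted p = 0.0132 and 0.00751). The opposite unevenness was seen in Thy1, at 177, 27.5 and 15.2 CPM before and 14.9, 26.6 and 23.0 CPM after, and in the pericyte proteoglycan Cspg4, at 63.5, 8.11 and 5.85 CPM before and 3.91, 2.58 and 1.79 CPM after. Both were highest in BM nonsorted 1 and neither was called (edgeR adjusted p = 0.316 and 0.118). The groups did not overlap in Cspg4, which the DESeq2 Wald test called lower (adjusted p = 0.0216). Among genes not called, the log2 fold change was 1 or more in 284 and -1 or less in 282.

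Of 20 stromal surface antigens 19 were tested, with 1 called higher and 1 lower (against 0.800% and 7.55% of all genes tested). Lepr, the leptin receptor that marks the perivascular stroma of adult marrow, stood at 3.88, 5.10 and 3.21 CPM before and 22.6, 12.2 and 13.4 CPM after sorting (1.98 ± 0.29, edgeR adjusted p = 0.00647). The groups did not overlap, and the call was lost in the fit of 12 libraries (0.5003). Bst1, an ectoenzyme shared by stromal and myeloid cells, stood at 6.85, 4.96 and 4.20 CPM before and 0.143, 0.472 and 0.543 CPM after (-3.76 ± 0.46, edgeR adjusted p = 0.0025), and was lost in the same fit (0.0885). In the list of niche factors Nes, an intermediate filament, was the 1 gene called, at 107, 104 and 82.9 CPM before and 33.9, 52.9 and 50.3 CPM after (-1.10 ± 0.19, edgeR adjusted p = 0.0133). It was lost without BM nonsorted 1 (0.0541) or BM nonsorted 2 (0.0562) and in the fit of 12 libraries (0.239). The urokinase gene Plau was called lower with 36.5% left, at 213, 163 and 149 CPM before and 55.1, 64.2 and 72.4 CPM after (-1.45 ± 0.16, edgeR adjusted p = 0.00183).

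The genes called higher were few and their rises small beside the falls. They took 0.381%, 0.452% and 0.409% of the counts before sorting and 0.718%, 0.634% and 0.658% after, and in 45 of the 118 the log2 fold change was 1 or more. Leaving out BM nonsorted 1, 2 or 3 gave 37, 99 or 71 such genes, and leaving out BM sorted 1, 2 or 3 gave 85, 43 or 46. The number was 26 in the fit of 12 libraries, 242 with upper quartile scaling and 465 by the DESeq2 Wald test. Of 25 rises followed through each alternative, 7 stayed called without each library in turn and 1, Hilpda, in each setting tried.

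The clearest rise was that of Pcsk5, a protease that activates secreted precursors, at 4.20, 4.59 and 5.20 CPM before and 19.0, 22.6 and 21.5 CPM after sorting (2.17 ± 0.13, edgeR adjusted p = 6.84e-05). Plagl1, an imprinted zinc finger gene, stood at 11.8, 17.2 and 12.95 CPM before and 67.0, 46.6 and 56.3 CPM after (2.02 ± 0.19, edgeR adjusted p = 0.000783). Aldh1a2, which makes retinoic acid, stood at 13.3, 28.5 and 13.1 CPM before and 159.96, 77.7 and 122 CPM after (2.71 ± 0.40, edgeR adjusted p = 0.007). All 3 stayed called without each library in turn, and all 3 were lost in the fit of 12 libraries (0.0976, 0.176 and 0.547). Aldh1a2 was also lost without a low-count filter (0.0785).

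Further rises were found among the named genes. The lipopolysaccharide-binding protein gene Lbp stood at 15.6, 23.7 and 22.8 CPM before and 69.3, 45.8 and 42.8 CPM after (1.35 ± 0.24, edgeR adjusted p = 0.0154). The protease inhibitor Serpine2 stood at 103, 187 and 139 CPM before and 425, 292.5 and 316 CPM after (1.27 ± 0.24, edgeR adjusted p = 0.0222). It was lost without BM nonsorted 3 (0.0694), BM sorted 1 (0.0621) or BM sorted 3 (0.0683). Tfr2, a second transferrin receptor, stood at 23.7, 38.9 and 27.3 CPM before and 72.8, 69.97 and 56.4 CPM after (1.15 ± 0.20, edgeR adjusted p = 0.0144), and was lost without BM nonsorted 3 (0.0503), BM sorted 1 (0.0518) or BM sorted 2 (0.0583). The homeobox gene Irx1, at 1.71, 0.503 and 0.903 CPM before and 11.2, 6.73 and 4.34 CPM after, had the largest fitted rise of the called genes named here (2.83 ± 0.53, edgeR adjusted p = 0.0199), and was lost without BM nonsorted 2 (0.0509), BM nonsorted 3 (0.067) or BM sorted 2 (0.0579). In BM sorted 1 Lepr, Aldh1a2, Lbp, Serpine2 and Irx1 stood highest, as did Cxcl12 and Kitl.

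**Figure D5:**
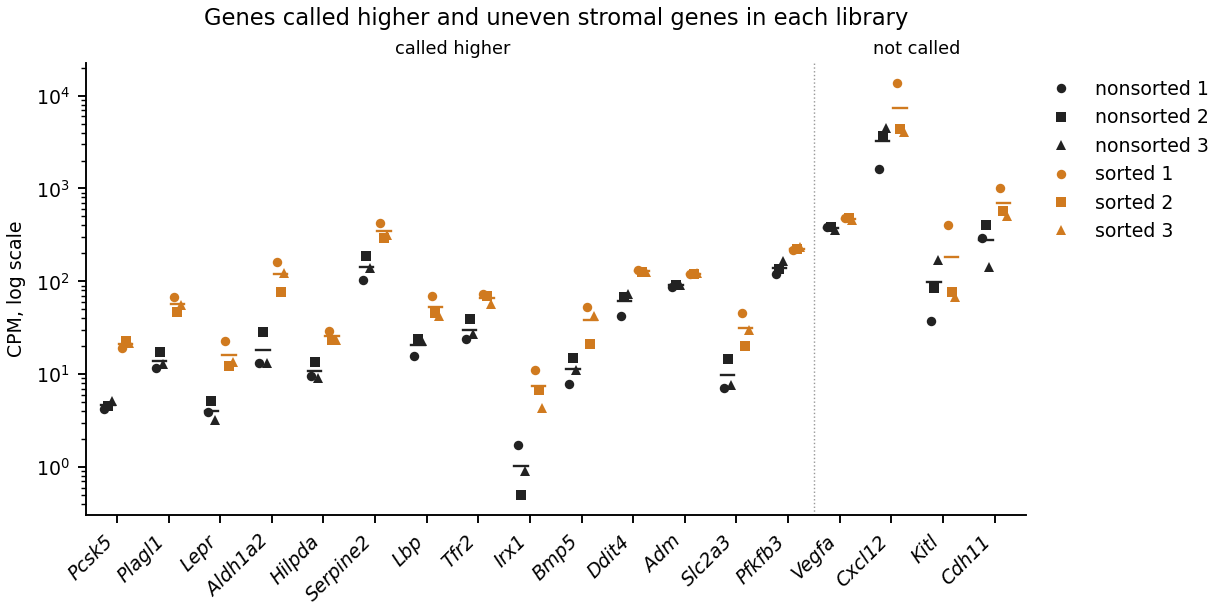
CPM on a log scale in each library of 14 genes called higher after sorting and of 4 genes not called, with nonsorted libraries in black, sorted libraries in orange, the shape giving the library number and short lines the group means. Pcsk5 and Adm show tight groups, while Cxcl12 and Kitl have 1 high sorted library, BM sorted 1, at 13532 and 408 CPM.

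Genes that respond to low oxygen were called higher in a few cases. The cultures of both groups were kept under hypoxia, where the factor HIF binds DNA and switches on glycolysis and vessel growth. Of 20 hypoxia response genes 3 were called higher (against 0.800% of all genes tested), 0 lower and 17 neither, and 2 to 3 were called without 1 library. Hilpda, a lipid droplet protein, stood at 9.66, 13.6 and 9.15 CPM before and 29.3, 23.6 and 23.5 CPM after (1.24 ± 0.18, edgeR adjusted p = 0.00628). The peptide hormone Adm stood at 87.8, 91.1 and 92.2 CPM before and 120.04, 121 and 124 CPM after (0.43 ± 0.07, edgeR adjusted p = 0.0076), and was lost in the fit of 12 libraries (0.514). Ddit4, an inhibitor of growth signalling, stood at 42.6, 67.1 and 73.9 CPM before and 132, 125 and 127 CPM after (1.06 ± 0.20, edgeR adjusted p = 0.0185), and was lost without any 1 of the sorted libraries (0.0604 to 0.0709).

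Most of the hypoxia list was not called by edgeR, and 15 of the 20 had a positive log2 fold change. By the DESeq2 Wald test 7 were called higher and 1 lower. The groups did not overlap in 8 that were higher and 1 that was lower. Over all 14753 genes tested, 1766 were higher without overlap. Together the list took 0.301%, 0.302% and 0.302% of the counts before sorting and 0.348%, 0.353% and 0.363% after. Vegfa stood at 388, 388 and 353 CPM before and 483, 479 and 459 CPM after, without overlap, and missed the threshold (0.33 ± 0.08, edgeR adjusted p = 0.0606). It passed with upper quartile scaling (edgeR adjusted p = 0.0284) and by the DESeq2 Wald test (adjusted p = 0.000838). The collagen hydroxylase P4ha1 was flat (0.09 ± 0.17, edgeR adjusted p = 0.816). Of 18 glycolysis genes 3 were called higher (against 0.800% of all genes tested), but 0 to 2 without 1 library. The 3 were the glucose transporters Slc2a1 and Slc2a3 and the regulator Pfkfb3. Slc2a1 stood at 145, 139.8 and 134 CPM before and 177, 172 and 172.5 CPM after (0.32 ± 0.07, edgeR adjusted p = 0.0401), and its call was lost without any 1 of the 6 libraries (0.0801 to 0.151). Pfkfb3 stood at 119, 137 and 165 CPM before and 218, 222 and 235 CPM after (0.68 ± 0.13, edgeR adjusted p = 0.0193), and was lost without BM nonsorted 2 (0.0799), BM sorted 2 (0.0673) or BM sorted 3 (0.0834). Ldha, which makes lactate, stood at 1789, 1709.7 and 1754 CPM before and 1651, 1737 and 1849 CPM after (0.00 ± 0.09, edgeR adjusted p = 0.983).

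The core ACGTG of the hypoxia response element occurred in 28.8% of the promoters of tested genes and in 29 of 89 of those called higher (32.6%). Among genes called lower the shares were 14.4% (under 1% left), 21.3% (1% to 10%), 23.7% (10% to 50%) and 32.9% (over 50%). In the hypoxia list 14 of 18 promoters held it and in the glycolysis list 12 of 17. The 5 letters are short and lie inside the palindrome searched above, so each of its matches is also a match here. Windows of 3 called genes with the core upstream of the start, chosen after their values were seen, are printed as before with the matches in capitals, Hilpda and Slc2a1 as the 120 bases next to the start and Ddit4 as a window that ends 126 bases before it.
Hilpda, chr6:29272506-29272625, plus strand: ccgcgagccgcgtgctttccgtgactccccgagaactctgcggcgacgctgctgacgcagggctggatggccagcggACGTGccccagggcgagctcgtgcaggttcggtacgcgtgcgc
Slc2a1, chr4:119108625-119108744, plus strand: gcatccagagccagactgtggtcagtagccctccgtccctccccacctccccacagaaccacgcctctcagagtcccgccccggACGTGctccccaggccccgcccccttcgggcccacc
Ddit4, chr10:59951896-59952015, minus strand: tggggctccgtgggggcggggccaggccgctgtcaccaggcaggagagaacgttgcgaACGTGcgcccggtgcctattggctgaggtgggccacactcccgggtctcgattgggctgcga

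Several small falls in genes with high counts were lost when settings changed, although Fth1, with 51.0% left, was called in each of them. The genes lost included the mitochondrial genes mt-Nd1 and mt-Nd2, at 73.3% and 77.6% left, the actin-binding peptide Tmsb4x (57.9%), the membrane protein Itm2b (68.0%) and the small GTPase Cdc42 (77.9%). mt-Nd2 stood at 1136, 1158 and 1144 CPM before and 867, 916 and 884 CPM after (-0.37 ± 0.08, edgeR adjusted p = 0.044), without overlap. The calls of mt-Nd1, mt-Nd2 and Cdc42 were lost without any 1 of the 6 libraries (0.0651 to 0.159). Of 7 mitochondrially encoded genes tested these 2 were called lower (against 7.55% of all genes), and mt-Co1 was not (-0.02 ± 0.13, edgeR adjusted p = 0.947). With upper quartile scaling, under which the median log2 fold change of all genes was 0.0822 in place of -0.0023, mt-Nd1, mt-Nd2, Tmsb4x, Itm2b, Cdc42, Lamp1 and Psap were not called (0.0513 to 0.102), and the calls split into 242 higher and 961 lower.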

How the data were processed

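The deposited values are gene counts that the authors made with STAR 2.7.9a and featureCounts of Subread 2.0.1 on GRCm39, per the submitters' processing notes, which also list MultiQC 1.7. Neither the strand setting nor the annotation release is stated in those notes or in the labels, nor is the handling of shared reads; overlapping and near-identical genes are uncertain. RNA was extracted from lysed cells and made into libraries with a low-input kit, per the labels' protocols.

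Of 53819 entries, 28204 had a count in the 6 libraries, and entries that name no gene took at most 0.0282% of a library. Genes passing filterByExpr were scaled by TMM and tested with edgeR 4.0.16 (robust quasi-likelihood test, 4 residual degrees of freedom, limma 3.58.1, R 4.3.3), with Benjamini-Hochberg adjustment over all 14753 genes and a threshold of 0.05. Standard errors are approximate, from the fold change (log2) over the root of F. CPM is relative to the total of a library over the genes tested, multiplied by its TMM factor. DESeq2 1.42.0 was an alternative. Tables and figures were made with Python 3.11.15, pandas 2.3.3, numpy 2.4.6 and matplotlib 3.10.9. The fitting scripts were tested on simulated data.

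The comparison, the 41 gene lists and the tests were chosen with earlier results of these data known. Named genes are the gate antigens, the 15 largest falls in CPM, the 10 largest fold falls from at least 20 CPM, the 20 largest non-overlapping rises to at least 5 CPM, the 10 most abundant genes after sorting, the 8 most abundant called lower, and in each list up to 3 called members a direction and the most abundant member not called. Predicted models, clones and pseudogenes were left out. Not all of these are described. Other genes, such as Fos, Mertk, Kitl, Vav1, Ctsa and Vegfa, were chosen after their values were seen. Alternatives covered scaling, filter, test, fit of all 12 libraries, replicate number and each library left out. The other 6 libraries of the series entered only the fit of 12. Results for some genes are not reported here.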

Additional observations from a re-analysis of the deposited data

How the results depend on the processing

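With 4 residual degrees of freedom, the calls near the threshold depended on the settings. Genes called higher numbered 242 with upper quartile scaling, 465 by the DESeq2 Wald test, 26 with all 12 libraries in the fit and 37 to 99 without 1 library. Genes called in both directions numbered 1884 by the DESeq2 Wald test, and the number called lower stayed within 1.5 times of 1114 in each setting tried. Of 117 called genes followed, 68 stayed called in all alternatives and 0 changed sign. Depth limits genes with few counts after sorting, whose folds are bounds or ratios with counting intervals.

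Both groups carry replicate numbers 1 to 3. The deviations of same-numbered libraries from their group means correlated at -0.411, -0.015 and -0.086. With 3 libraries a group, these values cannot settle whether equal numbers share a mouse or culture. With the replicate block 29 genes were called higher and 795 lower, and not every library correlated best with its own number. The block gave 3 proton pump subunits called lower in place of 8, and 2 skeletal muscle genes in place of 0, among them Myh3 (-4.33, edgeR adjusted p = 0.0265).

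Of the genes not called, 18 changed sign in an alternative. With upper quartile scaling the log2 fold change was 0.0092 for Fn1, 0.0801 for Ldha, 0.0494 for Ly6c1, 0.0629 for mt-Co1, 0.0555 for Prrx1, 0.0471 for Scd2 and 0.0327 for Thbs1. Without a low-count filter it was -0.0069 for Itgav. For Ldha it was 0.0017 with at least 1 CPM in 3 libraries and 0.0005 with all 12 libraries in the fit. Leaving out each library in turn gave -0.0586 to 0.0967 for Col12a1, -0.6277 to 0.0758 for Col2a1, -0.1794 to 0.0749 for Fn1, -0.0224 to 0.2294 for Hsp90b1, -0.0544 to 0.2719 for Ifi27 and -0.1229 to 0.1751 for Itgav. The same range was -0.2806 to 0.0775 for Itgb1, -0.4493 to 1.5588 for Kitl, -0.0478 to 0.0349 for Ldha, -0.1162 to 0.0410 for Ly6c1, -0.0296 to 0.2364 for P4ha1 and -0.1046 to 0.0680 for Prrx1. It was -0.1298 to 0.9971 for Ptx3, -0.1724 to 0.2362 for Scd2, -0.1309 to 0.0309 for Thbs1, -2.2570 to 0.0043 for Thy1, -0.0751 to 0.1224 for Top2a and -0.1318 to 0.0541 for mt-Co1. The cause of these changes was not tested.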
